A study of Mus musculus with 9 samples.

Results

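The markers of microglia and macrophages examined here are Aif1, Csf1r, Cx3cr1, Itgam, Cd68, Tyrobp, Trem2, Cd14, Ptprc and Fcer1g, 10 genes chosen by symbol. Of these, 9 were measured, among 13089 genes in all, and all 9 passed the filter on low values (at least 1 RPKM in at least 3 libraries). Ptprc, which encodes the leukocyte surface phosphatase CD45, was not analysed here. The study sequenced poly(A) RNA of whole eyes from 3 inbred strains of laboratory mice, and its stated design sets them apart by how fast the retina degenerates. The groups were A/J and BALB/c, which are albino, and C57BL/6J, which is pigmented. All were wild-type females of 4 weeks, and no group was treated. Each strain had 3 libraries, each made from RNA pooled from 5 mice, and whether a strain's libraries stem from separate pools is not stated in the labels. The p-values thus rest on the spread among libraries, which may be technical.

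Microglia are the resident macrophages of the retina and brain, and the eye also holds macrophages in the choroid, ciliary body and cornea. They depend on the receptor CSF1R, survey their surroundings with receptors such as CX3CR1 and TREM2, and pass signals from several surface receptors through the small adaptor proteins TYROBP and FCER1G to the kinase SYK. When photoreceptors are damaged, microglia move into the photoreceptor layer and engulf cells and debris, so these genes are widely used as markers of the cells and of their activation. In whole eyes, more cells of a type and more RNA per cell cannot be told apart.

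Values are RPKM as the authors deposited them, that is, reads per kilobase of gene, scaled to the mapped reads of the library, and the depth of the libraries is unknown. Log2 changes come from a limma fit of all 9 libraries of log2(scaled RPKM + 0.5), a scale that makes changes of low genes look smaller, and the threshold of a call was an adjusted p under 0.05 over all 12920 genes tested. Photoreceptor, lens, pigment epithelial and corneal genes were present in all libraries. Likeness within a strain varied. Across genes, which do not count as independent replicates, Spearman correlations between its libraries were 0.918 to 0.991 for A/J, 0.991 to 0.996 for BALB/c and 0.911 to 0.982 for C57BL/6J. A/J 1 and A/J 2 had lower values for GC-rich transcripts (correlations of -0.65 and -0.72 across genes between GC content and deviation from the gene's mean), whereas A/J 3 had a trend of 0.46. The trend was 0.10, 0.56 and 0.56 in BALB/c 1, 2 and 3. It was -0.30, 0.24 and 0.39 in C57BL/6J 1, 2 and 3, so GC content bears on every comparison of strains. In C57BL/6J 3 the values added up to 117.4% of the total that RPKM should give, against 99.4% to 101.8% in the other libraries. Marker results that change call without A/J 3 or C57BL/6J 3 are given with and without them, by gene or in the closing sections.

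None of the 9 markers was called in any comparison of strains, but 3 of them, Tyrobp, Fcer1g and Itgam, were below every C57BL/6J library in every A/J and BALB/c library. In A/J minus C57BL/6J, 0 of 9 markers were called, against 2.69% of all genes tested, and 3 had an unadjusted p under 0.05, against 17.5%. In BALB/c minus C57BL/6J, 0 of 9 were called, against 3.07%, and 2 had an unadjusted p under 0.05, against 13.7%. In A/J minus BALB/c, 0 of 9 were called, against 2.47%, and 0 had an unadjusted p under 0.05, against 20.9%. Over all 3 strains at once, an F test called 0 of 9, against 4.46%, with 2 at an unadjusted p under 0.05, against 20.4%. The smallest adjusted p among the markers was 0.11, 0.15 and 0.34 in the 3 comparisons in that order and 0.13 in the F test. The median log2 change of the 9 markers was -0.04 in A/J minus C57BL/6J, -0.01 in BALB/c minus C57BL/6J and -0.01 in A/J minus BALB/c, beside -0.01 over all genes tested in each.

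The pattern in which all 6 albino libraries lie below all 3 C57BL/6J libraries was held by 3 of 9 markers (33.3%), against 6.76% of all genes tested. After scaling by size factors the same 3 markers held it, against 3.79%. No marker lay above all 3 C57BL/6J libraries in all 6, against 1.7%. The comparisons of A/J and of BALB/c share the C57BL/6J libraries, so the pattern is not seen independently in the 2 albino strains.

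**Figure D1:**
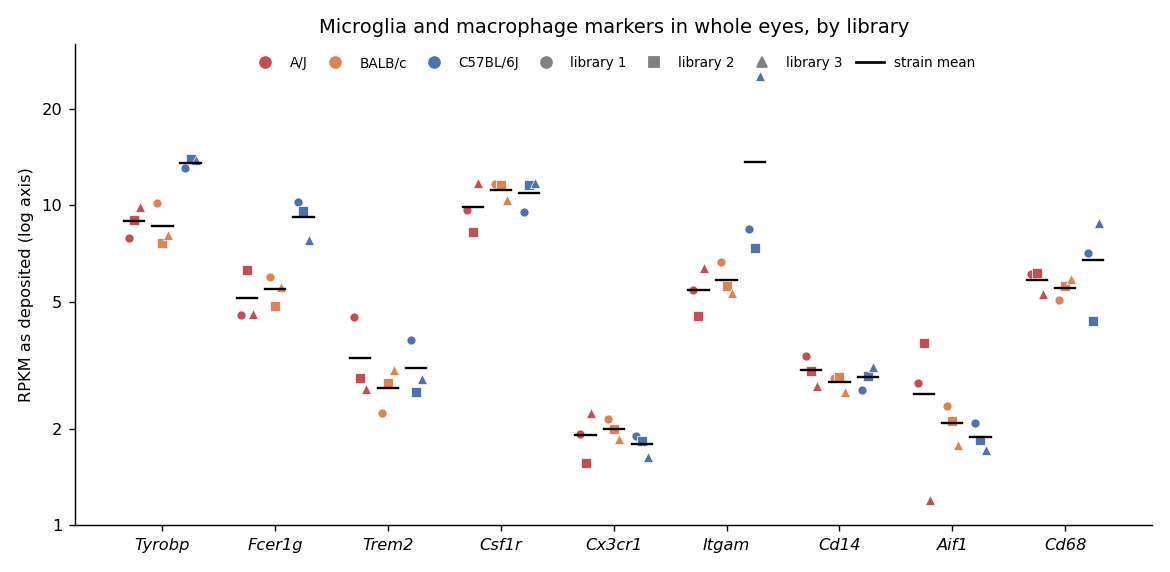
Deposited RPKM (log axis) of the 9 measured markers in each of the 9 libraries, with A/J, BALB/c and C57BL/6J from left to right for each gene, symbols for the library number and a bar at the mean of each strain. Tyrobp, Fcer1g and Itgam have all C57BL/6J libraries above all others, Itgam reaches 25.34 RPKM in C57BL/6J 3, and Aif1 spreads between 1.2 and 3.70 RPKM within A/J.

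Tyrobp encodes DAP12, an adaptor with an immunoreceptor activation motif that carries signals of TREM2 and other receptors. On chromosome 7, it was one of the strongest of the markers. Tyrobp was at 7.93, 9.0 and 9.85 RPKM in A/J, at 10.2, 7.64 and 8.07 RPKM in BALB/c, and at 13.09, 13.99 and 13.84 RPKM in C57BL/6J. The highest albino library, BALB/c 1, stayed below the lowest C57BL/6J library. Means were 8.93 ± 0.962 RPKM in A/J, 8.64 ± 1.37 RPKM in BALB/c and 13.6 ± 0.482 RPKM in C57BL/6J (SD, n = 3 each). The log2 change was -0.49 in A/J minus C57BL/6J (SE 0.14, 95% interval -0.81 to -0.16, adjusted p = 0.15) and -0.47 in BALB/c minus C57BL/6J (SE 0.14, -0.80 to -0.14, adjusted p = 0.15), which are folds of 0.71 and 0.72 without a call. A/J and BALB/c differed by -0.01 (-0.34 to 0.31, adjusted p = 0.96). Without A/J 3 Tyrobp was called lower in A/J relative to C57BL/6J (log2 change -0.54, adjusted p = 0.033), but so were 28.2% of all genes tested in either direction. After correction for GC content its log2 change in that comparison was -0.34 (adjusted p = 0.26).

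Fcer1g, on chromosome 1, encodes the gamma chain shared by several Fc receptors, an adaptor of the same kind as TYROBP. It was at 4.53, 6.29 and 4.56 RPKM in A/J, at 5.97, 4.86 and 5.54 RPKM in BALB/c, and at 10.22, 9.58 and 7.77 RPKM in C57BL/6J. The albino libraries all lay between 4.53 and 6.29 RPKM and did not overlap with C57BL/6J. Means were 5.13 ± 1.01 RPKM in A/J, 5.46 ± 0.56 RPKM in BALB/c and 9.19 ± 1.27 RPKM in C57BL/6J (SD, n = 3 each). The log2 change was -0.69 in A/J minus C57BL/6J (SE 0.19, 95% interval -1.11 to -0.26, adjusted p = 0.11), a fold of 0.62, and -0.53 in BALB/c minus C57BL/6J (SE 0.19, -0.96 to -0.11, adjusted p = 0.22), a fold of 0.69. A/J minus BALB/c was -0.16 (-0.58 to 0.27, adjusted p = 0.61). Without C57BL/6J 3, where Fcer1g was lowest among the C57BL/6J libraries, it was called lower in A/J relative to C57BL/6J (log2 change -0.86, adjusted p = 0.042), as were 2.27% of all genes in either direction. It was also called there on values without further scaling (-0.79, adjusted p = 0.047), as were 2.76% of all genes. The ratio of Fcer1g to Tyrobp RPKM ran from 0.463 to 0.699 in A/J, from 0.585 to 0.686 in BALB/c and from 0.561 to 0.781 in C57BL/6J, so it overlapped among the strains.

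Both adaptors are also made by other blood cells, and Fcer1g by mast cells. Of 10 neutrophil markers, S100a9 and Ltf were measured, with a summed level of 3.07 to 10.6 RPKM in A/J, 1.87 to 2.13 RPKM in BALB/c and 4.74 to 17.1 RPKM in C57BL/6J. The other 8, among them the granule genes Mpo, Elane and Camp, were not analysed here. Of 8 mast cell markers, 6 were measured, with a sum of 9.83 to 15.9 RPKM in A/J, 17.9 to 19.7 RPKM in BALB/c and 13 to 19.3 RPKM in C57BL/6J. Among them, the histamine-forming decarboxylase Hdc was at 0.29 to 0.35 RPKM in A/J, 0.51 to 0.60 RPKM in BALB/c and 2.13 to 5.56 RPKM in C57BL/6J. It passed the filter on low values only through C57BL/6J, so its lack of overlap with the albino libraries followed from the filter. The tryptase Tpsab1 was at 0.43 to 0.57 RPKM in A/J, 3.23 to 3.86 RPKM in BALB/c and 0.06 to 0.19 RPKM in C57BL/6J. It passed the filter only through BALB/c. Of 14 markers of lymphocytes and natural killer cells, Igj alone was measured, at 4.21 to 6.51 RPKM in A/J, 2.26 to 5.62 RPKM in BALB/c and 1.44 to 2.32 RPKM in C57BL/6J. None of the measured markers of these cells was at 0 in a library, and their part in the levels of Tyrobp, Fcer1g and Itgam was not tested.

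Trem2, on chromosome 17, encodes a receptor for lipids and cell debris that signals through TYROBP. Its values were 4.48, 2.88 and 2.66 RPKM in A/J, 2.24, 2.78 and 3.05 RPKM in BALB/c, and 3.79, 2.61 and 2.86 RPKM in C57BL/6J. The strains overlapped, and A/J 1 was the highest library. The means were 3.34 ± 0.993 RPKM in A/J, 2.69 ± 0.412 RPKM in BALB/c and 3.09 ± 0.622 RPKM in C57BL/6J (SD, n = 3 each). Log2 changes were 0.18 in A/J minus C57BL/6J (95% interval -0.32 to 0.67, adjusted p = 0.62), -0.01 in BALB/c minus C57BL/6J (-0.51 to 0.48, adjusted p = 0.99) and 0.19 in A/J minus BALB/c (-0.31 to 0.68, adjusted p = 0.60). The interval in BALB/c minus C57BL/6J includes a decrease as large as that of Tyrobp, and the one in A/J minus C57BL/6J does not.

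Itgam, on chromosome 7, encodes CD11b, the alpha subunit of complement receptor 3. Its values were 5.43, 4.50 and 6.38 RPKM in A/J, 6.63, 5.58 and 5.30 RPKM in BALB/c, and 8.45, 7.37 and 25.34 RPKM in C57BL/6J. C57BL/6J 3 stood far above the other libraries, and without it the C57BL/6J libraries were still above all 6 albino ones. The means were 5.44 ± 0.94 RPKM in A/J, 5.84 ± 0.701 RPKM in BALB/c and 13.7 ± 10.1 RPKM in C57BL/6J (SD, n = 3 each). Its log2 change came to -0.95 in A/J minus C57BL/6J (SE 0.35, 95% interval -1.75 to -0.15, adjusted p = 0.24) and -0.78 in BALB/c minus C57BL/6J (SE 0.35, -1.58 to 0.02, adjusted p = 0.38). Without C57BL/6J 3 these were -0.47 (adjusted p = 0.28) and -0.31 (adjusted p = 0.49). A/J minus BALB/c was -0.16 (-0.97 to 0.64, adjusted p = 0.78).

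In C57BL/6J 3, Itgam was the 1 marker of 9 that reached at least 2 times its highest scaled level in any other library, as did 547 genes (4.23%) of those tested. The beta subunit that pairs with CD11b, Itgb2, did not follow it, at 1.52 RPKM in C57BL/6J 3, beside 1.57 and 1.45 RPKM in C57BL/6J 1 and 2. The ratio of Itgam to Itgb2 was 16.7 in C57BL/6J 3, and it ran from 2.66 to 7.33 in A/J, from 7.36 to 9.90 in BALB/c and stood at 5.38 and 5.08 in the other C57BL/6J libraries. An annotated gene, Gm49368, overlaps Itgam by 210 bases of exon on the same strand. Of the 31-mers of Itgam transcripts (stretches of 31 bases), 68.1% also occur in transcripts of other genes, and Gm49368 shares the most. The counting rule is not given in the sources used here, so the value of Itgam is uncertain.

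The promoters of markers with and without the C57BL/6J pattern are shown to set their sequences beside their levels. They are from RefSeq on the build GRCm38.p6, which is not the build mm9 that the reads were mapped to, and cover the 250 bases before the start of the gene, read 5′ to 3′ on its own strand. Capitals mark GAGGAA or, for the other strand, TTCCTC, the core of sites bound by PU.1, a transcription factor that macrophages need. Itgam lies at chr7:128062390-128062639 on the plus strand, Fcer1g at chr1:171234350-171234599 on the minus strand and Cx3cr1 at chr9:120068297-120068546 on the minus strand.
Itgam: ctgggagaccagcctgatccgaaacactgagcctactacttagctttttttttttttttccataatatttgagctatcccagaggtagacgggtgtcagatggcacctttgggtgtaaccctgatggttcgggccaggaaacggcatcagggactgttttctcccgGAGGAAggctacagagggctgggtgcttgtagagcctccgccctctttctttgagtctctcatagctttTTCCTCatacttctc
Fcer1g: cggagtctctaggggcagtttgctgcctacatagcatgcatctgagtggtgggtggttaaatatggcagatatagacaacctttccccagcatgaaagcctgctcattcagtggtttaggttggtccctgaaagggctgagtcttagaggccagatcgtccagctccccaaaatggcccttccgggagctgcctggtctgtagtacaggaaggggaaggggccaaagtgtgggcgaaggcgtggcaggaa
Cx3cr1: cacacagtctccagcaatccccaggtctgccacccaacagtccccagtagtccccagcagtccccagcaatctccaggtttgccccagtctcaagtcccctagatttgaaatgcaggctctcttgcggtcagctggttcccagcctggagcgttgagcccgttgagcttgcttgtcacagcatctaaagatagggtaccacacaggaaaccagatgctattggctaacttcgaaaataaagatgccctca
The Itgam window holds the motif on each strand, ending 79 and 10 bases before the start, and the Fcer1g and Cx3cr1 windows hold no match to these letters. Of 10 markers, 7 had a promoter in the table, and 5 of the 7 held the motif at a listed start (Itgam, Cd68, Aif1, Trem2 and Ptprc), against 23.1% of 27025 promoters of the same length. Among promoters of tested genes the share was 22.1% of 10028. Ptprc held the motif at 1 listed start and not at the other, so genes with any match are set here beside a share of promoters. Among the markers with the C57BL/6J pattern, Itgam had the motif and Fcer1g did not, and Tyrobp had no entry. A match is a description of the letters in the window and not a measured binding site.

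Csf1r, on chromosome 18, encodes the receptor of the growth factors CSF1 and IL34. It was at 9.65, 8.28 and 11.74 RPKM in A/J, at 11.66, 11.57 and 10.36 RPKM in BALB/c, and at 9.52, 11.60 and 11.71 RPKM in C57BL/6J. The strains overlapped throughout, with A/J 2 the lowest library and A/J 3 the highest. Means were 9.89 ± 1.74 RPKM in A/J, 11.2 ± 0.726 RPKM in BALB/c and 10.9 ± 1.23 RPKM in C57BL/6J (SD, n = 3 each). The estimates were -0.04 on the log2 scale in A/J minus C57BL/6J (95% interval -0.39 to 0.30, adjusted p = 0.86), 0.21 in BALB/c minus C57BL/6J (-0.14 to 0.55, adjusted p = 0.65) and -0.25 in A/J minus BALB/c (-0.59 to 0.10, adjusted p = 0.34). Its highest library was 1.42 times its lowest, among the narrowest ranges of the markers.

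Cx3cr1, on chromosome 9, encodes the receptor of the neuronal chemokine fractalkine and was the weakest marker in most libraries. Its values were 1.93, 1.56 and 2.24 RPKM in A/J, 2.15, 1.99 and 1.86 RPKM in BALB/c, and 1.90, 1.83 and 1.63 RPKM in C57BL/6J. They overlapped among strains, although after scaling all BALB/c libraries lay above all C57BL/6J libraries, as for 13.3% of all genes tested. Means were 1.91 ± 0.34 RPKM in A/J, 2.00 ± 0.145 RPKM in BALB/c and 1.79 ± 0.14 RPKM in C57BL/6J (SD, n = 3 each). Log2 changes were 0.15 in A/J minus C57BL/6J (95% interval -0.19 to 0.49, adjusted p = 0.54), 0.27 in BALB/c minus C57BL/6J (-0.07 to 0.61, adjusted p = 0.50) and -0.12 in A/J minus BALB/c (-0.46 to 0.22, adjusted p = 0.63). Csf1r and Cx3cr1 each overlap an annotated gene on the opposite strand, Hmgxb3 by 873 bases and Gm33858 by 78 bases, and the sources used here do not say that strand was kept, so reads of these pairs cannot be told apart.

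Cd14, on chromosome 18, encodes the co-receptor that hands lipopolysaccharide to TLR4. It was at 3.39, 3.04 and 2.73 RPKM in A/J, at 2.88, 2.91 and 2.61 RPKM in BALB/c, and at 2.65, 2.92 and 3.12 RPKM in C57BL/6J. It had the narrowest range of the 9 markers, 1.3 times between the lowest and the highest library, and the strains overlapped. Means were 3.05 ± 0.33 RPKM in A/J, 2.80 ± 0.165 RPKM in BALB/c and 2.90 ± 0.236 RPKM in C57BL/6J (SD, n = 3 each). Its 95% intervals were -0.14 to 0.45 in A/J minus C57BL/6J, -0.19 to 0.41 in BALB/c minus C57BL/6J and -0.25 to 0.34 in A/J minus BALB/c, around log2 changes of 0.16, 0.11 and 0.05 with adjusted p-values of 0.47, 0.82 and 0.84.

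Aif1, on chromosome 17, encodes IBA1, the calcium-binding and actin-bundling protein most used to stain microglia. Its values were 2.79, 3.70 and 1.2 RPKM in A/J, 2.35, 2.11 and 1.78 RPKM in BALB/c, and 2.08, 1.84 and 1.71 RPKM in C57BL/6J. Both the highest and the lowest library were A/J libraries, A/J 2 and A/J 3, which differed by 3.08 times. Means were 2.56 ± 1.27 RPKM in A/J, 2.08 ± 0.286 RPKM in BALB/c and 1.88 ± 0.188 RPKM in C57BL/6J (SD, n = 3 each). Estimated log2 changes were 0.36 in A/J minus C57BL/6J (SE 0.30, 95% interval -0.33 to 1.04, adjusted p = 0.47), 0.26 in BALB/c minus C57BL/6J (-0.43 to 0.94, adjusted p = 0.81) and 0.10 in A/J minus BALB/c (-0.58 to 0.79, adjusted p = 0.84). Without A/J 3, Aif1 was called higher in A/J than in C57BL/6J (log2 change 0.75, adjusted p = 0.023), where 28.2% of all genes tested were called. Without A/J 1 and A/J 2 its log2 change was -0.43, so both the direction and the call rest on which A/J libraries are used.

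Cd68, on chromosome 11, encodes a lysosomal glycoprotein that rises in phagocytic cells. It was at 6.11, 6.15 and 5.29 RPKM in A/J, at 5.06, 5.59 and 5.87 RPKM in BALB/c, and at 7.12, 4.34 and 8.79 RPKM in C57BL/6J. The C57BL/6J libraries included both the lowest and the highest value, and the other strains lay between them. Means were 5.85 ± 0.485 RPKM in A/J, 5.51 ± 0.411 RPKM in BALB/c and 6.75 ± 2.25 RPKM in C57BL/6J (SD, n = 3 each). Log2 changes were -0.04 in A/J minus C57BL/6J (95% interval -0.49 to 0.40, adjusted p = 0.90), -0.06 in BALB/c minus C57BL/6J (-0.50 to 0.39, adjusted p = 0.95) and 0.02 in A/J minus BALB/c (-0.43 to 0.46, adjusted p = 0.97).

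**Figure D2:**
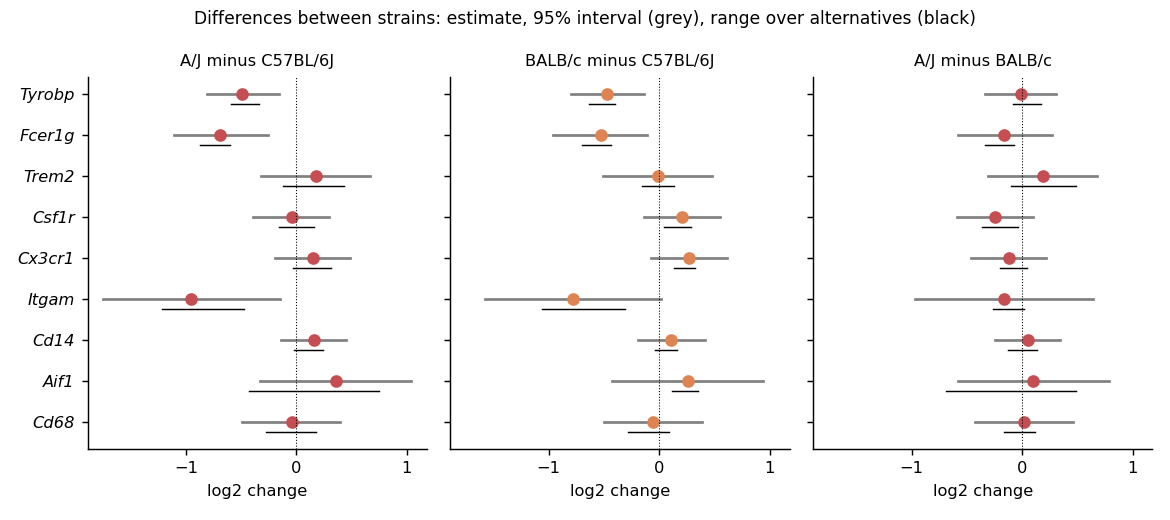
Log2 change of each marker between A/J and C57BL/6J, between BALB/c and C57BL/6J and between A/J and BALB/c, first minus second, on the log2(scaled RPKM + 0.5) scale, with the limma estimate as a point, its 95% interval as a grey line and the range over alternative settings as a black line. Tyrobp and Fcer1g lie below 0 with their intervals and all alternatives in both comparisons with C57BL/6J, and Aif1 has the widest range over alternatives in A/J minus BALB/c.

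The order of the markers was much the same in all libraries. Csf1r or Tyrobp ranked first in 8 libraries and Itgam in C57BL/6J 3, and Cx3cr1 or Aif1 ranked last in all 9. Csf1r and Tyrobp were mid-range genes of the eye, with a mean over 9 libraries above 54.7% and 53.9% of all genes listed. Itgam stood above 46.4%, Fcer1g above 38.9% and Cd68 above 36.2%, while Trem2, Cd14, Aif1 and Cx3cr1 stood above 18.8%, 17.9%, 12.5% and 10.4%. The summed RPKM of the 9 markers was 46.2, 45.4 and 46.7 in A/J, 49.1, 45 and 44.4 in BALB/c, but 58.8, 56.1 and 76.8 in C57BL/6J. Leaving out Itgam, the sum was 40.8, 40.9 and 40.3 RPKM in A/J, 42.5, 39.5 and 39.1 RPKM in BALB/c, and 50.4, 48.7 and 51.4 RPKM in C57BL/6J. These sums of deposited values were below C57BL/6J in all 6 albino libraries. Both sums include Tyrobp and Fcer1g, which held that pattern themselves, so the sums are not separate from it. After scaling by size factors, the sum of the 9 was at most 51.9 RPKM in the albino libraries and at least 56.0 RPKM in C57BL/6J, but without Itgam BALB/c 1 stood at 44.9 RPKM and C57BL/6J 3 at 44.5 RPKM, so the groups overlapped.

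The markers did not move as 1 group across libraries. The median SD of a marker's log2 value within a strain was 0.22 for A/J, 0.13 for BALB/c and 0.17 for C57BL/6J, beside 0.26, 0.10 and 0.25 over all genes tested. On centred log2 profiles over the 9 libraries, the root mean square difference between a marker and the mean of the others was largest for Itgam at 0.60 and Aif1 at 0.43, then Fcer1g at 0.34 and Trem2 at 0.29. It was 0.25 for Cx3cr1, 0.24 for Csf1r and Tyrobp, 0.21 for Cd68 and smallest, at 0.17, for Cd14. The mean profile of the 9 markers was nearly flat, from -0.16 in A/J 3 to 0.12 in C57BL/6J 3. Among the genes whose profiles were most like it over these 9 libraries were the myoferlin gene listed as Fer1l3 (root mean square difference 0.046), Tfdp1 (0.059), Slc20a2 (0.061), Svil (0.065) and Wnk1 (0.067), none of which is a marker of microglia on the lists used here.

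The A/J libraries split differently for different markers. The mean of A/J 1 and A/J 2 minus A/J 3 was 1.16 on the log2 scale for Aif1, 0.41 for Trem2, 0.25 for Fcer1g, 0.24 for Cd14 and 0.23 for Cd68. It was -0.33 for Csf1r, -0.30 for Itgam, -0.26 for Cx3cr1 and -0.17 for Tyrobp. Correction for GC content left that of Aif1 at 1.2 and moved that of Trem2, whose transcript has 57.5% GC, to 0.94 and that of Csf1r to -0.07. Other microglial receptor genes of low GC content stood higher in A/J 1 and A/J 2 and lost much of the gap on correction. The gap of Gpr34, at 37.1% GC, was 1.5 before and 0.67 after, and that of P2ry12, at 38.6% GC, was 0.93 before and 0.18 after. These are differences within a strain with no test.

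**Figure D3:**
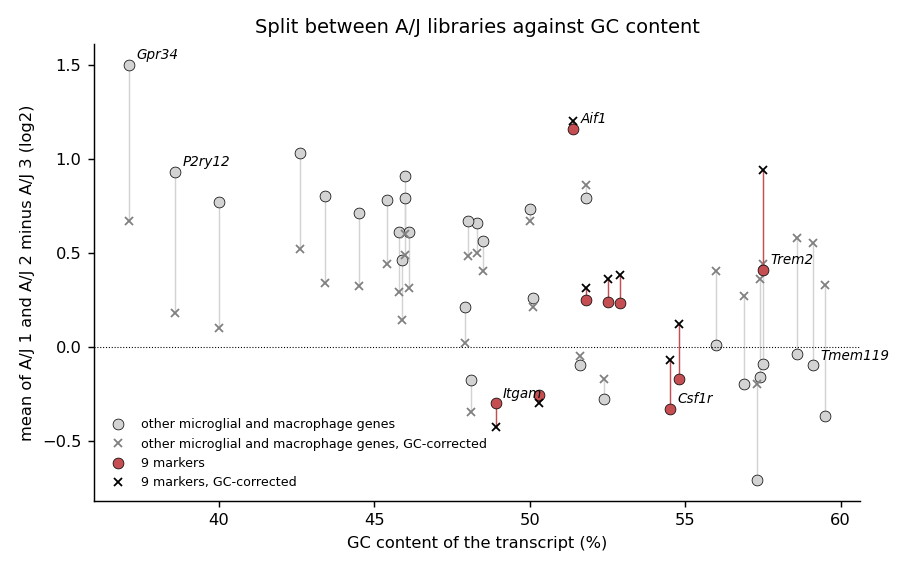
Mean log2 value of A/J 1 and A/J 2 minus A/J 3 against the GC content of the transcript in percent, for the 9 markers (red) and other microglial and macrophage genes (grey), before (circles) and after (crosses) correction for GC content. Genes of low GC content lie high and drop on correction, whereas Aif1 is at 1.16 before and 1.2 after.

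Beyond the 9 markers, genes of surveying (homeostatic) microglia were described from a list of 20, of which 17 were listed and 16 tested. C1qb, which encodes a chain of the complement starter C1q, and Olfml3, a secreted glycoprotein with the highest mean on the list, were the 2 called lower in A/J than in C57BL/6J. The mean of Olfml3 over 9 libraries was 43.1 RPKM, beside 10.7 RPKM for Csf1r, and which cells of the eye made it was not tested. Olfml3 was at 23.18, 23.59 and 29.28 RPKM in A/J, at 42.92, 47.47 and 46.14 RPKM in BALB/c, and at 62.74, 66.63 and 45.84 RPKM in C57BL/6J. Its log2 change was -1.07 in A/J minus C57BL/6J (SE 0.19, adjusted p = 0.021) and -0.91 in A/J minus BALB/c (SE 0.19, adjusted p = 0.048), with no overlap of A/J with either strain. The first call did not survive leaving out A/J 1 or 2, BALB/c 2 or 3, or C57BL/6J 1 or 2 (adjusted p up to 0.11). The second did not survive leaving out A/J 1 or 2, C57BL/6J 1 or a BALB/c library (up to 0.24). Nor did it survive GC correction (0.051), quantile normalization (0.071) or a replicate block (0.062, and 0.07 with GC correction). The first was also lost with only the 2 strains in the fit (0.13), and both without A/J 1 and A/J 2 together (0.36 and 0.56). They were kept in 12 and in 9 of 20 alternatives.

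C1qb was at 16.03, 13.19 and 16.76 RPKM in A/J, at 15.87, 13.07 and 15.10 RPKM in BALB/c, and at 25.85, 27.80 and 29.02 RPKM in C57BL/6J. As for Tyrobp and Fcer1g, it had all albino libraries below all C57BL/6J ones. The log2 change was -0.73 in A/J minus C57BL/6J (SE 0.13, adjusted p = 0.022) and -0.72 in BALB/c minus C57BL/6J (SE 0.13, adjusted p = 0.022). The A/J call was lost after GC correction (-0.47, adjusted p = 0.15) and on leaving out A/J 1 or 2, BALB/c 3, or C57BL/6J 1 or 2 (up to 0.093), with only the 2 strains in the fit (0.14) and without A/J 1 and A/J 2 together (0.24). The BALB/c call was kept after GC correction and was lost on leaving out C57BL/6J 1 or 2 or any BALB/c library (up to 0.15). They were kept in 11 and in 15 of 20 alternatives. Of the 16 genes tested, Tmem119, C1qb, C1qc and Selplg (25.0%) had all albino libraries below all C57BL/6J ones, against 6.76% of all genes tested, and after scaling C1qb and C1qc did, against 3.79%.

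Other genes on the list went the other way or overlapped, and the median log2 change of the 16 was -0.13 in A/J minus C57BL/6J, -0.14 in BALB/c minus C57BL/6J and 0.06 in A/J minus BALB/c. P2ry12, the ADP receptor that guides microglial processes, was at 3.87, 4.14 and 1.92 RPKM in A/J, at 1.47, 1.26 and 1.39 RPKM in BALB/c, and at 1.37, 1.58 and 0.53 RPKM in C57BL/6J. All A/J libraries were above all others, but P2ry12 was not called with all libraries in the fit (log2 change 1.27 in A/J minus C57BL/6J, adjusted p = 0.099). It was called there after GC correction (0.88, adjusted p = 0.032), where 3.92% of all genes were called. Without A/J 3 it was called (1.58, adjusted p = 0.015), where 28.2% of all genes were. Without A/J 3 and C57BL/6J 3 together it was also called (1.24, adjusted p = 0.00029), where 39.5% of all genes were. In A/J minus BALB/c it was at 0.92 (adjusted p = 0.18). It was called there without A/J 3 (1.23, adjusted p = 0.019), where 34.6% of all genes were called. It was chosen for mention after its values were seen. Siglech, Slc2a5 and Cd33 of this list were not analysed here.

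**Figure D4:**
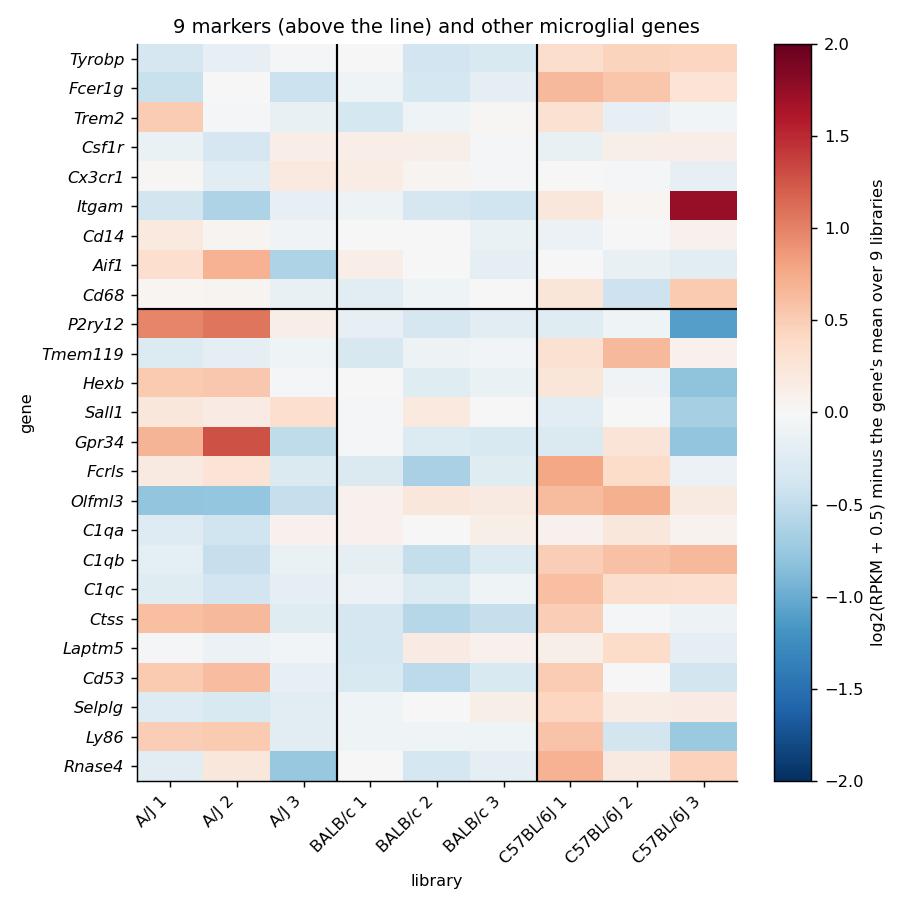
Log2(RPKM + 0.5) of each gene minus its mean over the 9 libraries, as colour from blue (below) to red (above), for the 9 markers above the black line and the 16 tested genes of surveying microglia below it, with the libraries of A/J, then BALB/c, then C57BL/6J from left to right. Tyrobp, Fcer1g, C1qb and C1qc are red in all C57BL/6J libraries, P2ry12 and Gpr34 are red in A/J 1 and A/J 2, and Itgam is darkest in C57BL/6J 3.

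Among 18 genes of border macrophages and monocytes, 16 were listed and tested. The highest was Cbr2, a carbonyl reductase, at 54.93 to 68.79 RPKM in A/J, 120.5 to 139.4 RPKM in BALB/c and 69.46 to 195.2 RPKM in C57BL/6J. Its mean over 9 libraries was above 96.8% of all genes listed, and which cells of the eye made it was not tested. None of the 16 was called in A/J minus C57BL/6J. After GC correction Lyve1 was called higher there (log2 change 0.61, adjusted p = 0.025) and Ms4a7 lower (-0.96, adjusted p = 0.029), where 3.92% of all genes were called. Lyve1 was then also called higher in A/J than in BALB/c (0.70, adjusted p = 0.015), where 3.3% of all genes were. Ms4a7 was then called lower in BALB/c than in C57BL/6J (-0.97, adjusted p = 0.026), where 4.55% were. In BALB/c minus C57BL/6J, F13a1, the A subunit of coagulation factor XIII, was called lower, at 1.66 ± 0.289 against 4.59 ± 1.67 RPKM (SD, n = 3 each; log2 change -1.05, SE 0.23, limma adjusted p = 0.046). That call was lost without any 1 of the C57BL/6J or BALB/c libraries or A/J 1 (up to 0.21). It was also lost with a replicate block (0.074, and 0.053 with GC correction) and was kept in 11 of 20 alternatives. Ly6c2, a surface marker of monocytes, was called higher in BALB/c than in C57BL/6J, at 1.81 to 2.25 RPKM in BALB/c and 0.23 to 0.38 RPKM in C57BL/6J (log2 change 1.74, adjusted p = 0.00041). In A/J it was at 0.33 to 0.57 RPKM and called lower than in BALB/c (-1.53 on the log2 scale, adjusted p = 0.0016). Ly6c2 reached 1 RPKM in the BALB/c libraries alone and so passed the filter only through the strain in which it is high, and without any 1 BALB/c library it was not tested. Because 23.7% of its 31-mers also occur in other genes, mostly Ly6c1, its level is uncertain. The median log2 change of the 16 was -0.22 in A/J minus C57BL/6J, -0.28 in BALB/c minus C57BL/6J and 0.13 in A/J minus BALB/c.

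Activation genes, which microglia raise for lipid handling and lysosomal digestion partly under TREM2, were represented by 17 of 20, and 0 were called in any comparison. That count changed with GC correction. Spp1 (log2 change -0.95, adjusted p = 0.0095), Gpnmb (-0.69, adjusted p = 0.032) and Ccl6 (-0.80, adjusted p = 0.015) were then called lower in A/J than in C57BL/6J. There 3.92% of all genes were called. Ccl6 was then also called lower in BALB/c than in C57BL/6J (-0.81, adjusted p = 0.013), where 4.55% of all genes were called. The highest was Fabp5, a fatty acid carrier that epithelial cells also make, at 903.6 to 1567 RPKM in A/J, 1383 to 1474 RPKM in BALB/c and 767.2 to 1199 RPKM in C57BL/6J. Of the 17, Apoe, Axl, Spp1, Gpnmb and Ccl6 (29.4%) had all albino libraries below all C57BL/6J ones, against 6.76% of all genes tested, and after scaling Apoe and Ccl6 did, against 3.79%. Apoe, the lipid carrier, averaged 857 ± 56.4 RPKM in A/J, 872 ± 56.7 RPKM in BALB/c and 1190 ± 23.5 RPKM in C57BL/6J (SD, n = 3 each). The medians of the 17 log2 changes were -0.10 in A/J minus C57BL/6J, 0.01 in BALB/c minus C57BL/6J and -0.05 in A/J minus BALB/c. Most of these genes are also made by other cells of the eye, such as Müller glia and pigment cells.

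Around CSF1R, 11 of 14 ligands, transcription factors and signalling genes were measured, and 0 were called. The ligands of the receptor were Csf1, at 2.69 to 3.23 RPKM in A/J, 2.54 to 2.88 RPKM in BALB/c and 2.69 to 7.43 RPKM in C57BL/6J, and Il34, at 2.47 to 6.42 RPKM in A/J, 3.64 to 4.74 RPKM in BALB/c and 4.13 to 8.68 RPKM in C57BL/6J. Csf1 in C57BL/6J 3 was, like Itgam, at least 2 times its scaled level in any other library, as were Runx1, Inpp5d and the globin gene Hbb-b1 among the genes on these lists. Sfpi1, the gene of PU.1, was at 1.73, 1.79 and 2.42 RPKM in A/J, at 1.65, 1.84 and 1.94 RPKM in BALB/c, and at 3.27, 3.63 and 2.25 RPKM in C57BL/6J. C57BL/6J 3 lay below A/J 3, so A/J overlapped with C57BL/6J, while BALB/c lay below it in the deposited values, overlapped with it after scaling and was not called (log2 change -0.42 in A/J minus C57BL/6J, adjusted p = 0.31, and -0.46 in BALB/c minus C57BL/6J, adjusted p = 0.37). Without A/J 3 and C57BL/6J 3 together Sfpi1 was called lower in both (-0.75, adjusted p = 0.0033, and -0.68, adjusted p = 0.0053), where 39.5% and 14.6% of all genes were called. The highest gene of the list was the adaptor Grb2, at 19.63 to 23.11 RPKM over all libraries. Median log2 changes of the 11 were -0.34 in A/J minus C57BL/6J, -0.21 in BALB/c minus C57BL/6J and -0.03 in A/J minus BALB/c.

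Downstream of TYROBP and FCER1G, 9 of 20 kinases, adaptors and partner receptors were listed, 8 were tested and 0 were called. Syk, the kinase that both adaptors recruit, was at 1.3 to 1.82 RPKM in A/J, 1.36 to 1.62 RPKM in BALB/c and 1.51 to 2.09 RPKM in C57BL/6J, with a log2 change of -0.03 in A/J minus C57BL/6J (adjusted p = 0.90). The highest gene was the kinase Lyn, at 2.71 to 5.18 RPKM in A/J, 3.15 to 3.29 RPKM in BALB/c and 5.38 to 8.75 RPKM in C57BL/6J, with no overlap of the albino strains with C57BL/6J before scaling (log2 change -0.49, adjusted p = 0.30, and -0.72, adjusted p = 0.19). The medians over the 8 were -0.11 in A/J minus C57BL/6J, -0.27 in BALB/c minus C57BL/6J and 0.12 in A/J minus BALB/c. Fc receptor genes on the list included Fcgr2b, at 1.86 to 4.06 RPKM in A/J, 2.74 to 3.19 RPKM in BALB/c and 3.46 to 5.30 RPKM in C57BL/6J, and Fcgr3, at 2.87 to 5.45 RPKM in A/J, 2.54 to 3.19 RPKM in BALB/c and 3.58 to 6.15 RPKM in C57BL/6J.

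Of 9 genes by which neurons and other cells restrain microglia through CX3CR1, CD200 receptors and related pathways, 7 were measured and 0 were called. Cx3cl1, which encodes fractalkine, the ligand of CX3CR1, was at 14.86, 15.58 and 25.06 RPKM in A/J, at 18.66, 23.35 and 22.37 RPKM in BALB/c, and at 20.83, 26.34 and 27.15 RPKM in C57BL/6J. The ligand thus had several times the RPKM of its receptor in every library, and its strains overlapped (log2 change -0.34 in A/J minus C57BL/6J, adjusted p = 0.36). The highest gene was Sirpa, the receptor of CD47 that neurons also make, at 34.64 to 47.69 RPKM in A/J, 26.13 to 30.37 RPKM in BALB/c and 39.27 to 43.35 RPKM in C57BL/6J. Medians were 0.04 in A/J minus C57BL/6J, -0.03 in BALB/c minus C57BL/6J and 0.09 in A/J minus BALB/c.

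For complement receptor 3 and CD14, 13 of 15 partner genes were measured. Icam1, the endothelial adhesion ligand of the receptor, was called lower in A/J relative to C57BL/6J, at 2.96, 2.55 and 3.01 against 5.69, 4.99 and 5.66 RPKM (log2 change -0.73, SE 0.13, adjusted p = 0.021), and it stood at 2.89 to 3.67 RPKM in BALB/c without a call. That call was lost after GC correction (-0.56, adjusted p = 0.053) and on leaving out A/J 1 or 2, BALB/c 3, or C57BL/6J 1 or 2 (up to 0.087), with only the 2 strains in the fit (0.12) and without A/J 1 and A/J 2 together (0.23), and it was kept in 11 of 20 alternatives. In A/J minus BALB/c, Fermt3, the kindlin that activates leukocyte integrins, was called lower, at 5.08 ± 0.92 against 8.43 ± 1.00 RPKM (SD, n = 3 each; log2 change -0.75, limma adjusted p = 0.043), and Irak4, a kinase below Toll-like receptors, at 1.32 ± 0.118 against 2.59 ± 0.405 RPKM (log2 change -0.82, adjusted p = 0.020). Fermt3 was lost after GC correction (-0.44, adjusted p = 0.096), and on leaving out any BALB/c library, A/J 1 or 2, or C57BL/6J 1 or 2 (up to 0.24), on values as deposited (0.085), with only the 2 strains in the fit (0.062) and without A/J 1 and A/J 2 together (0.49), and was kept in 8 of 20 alternatives. Irak4 kept its call after GC correction and lost it on leaving out A/J 1 or 2 or BALB/c 2 or 3 (up to 0.13) or A/J 1 and A/J 2 together (0.16), and was kept in 15 of 20. Icam1, Fermt3 and Irak4 each overlap an annotated gene on the opposite strand.

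The partners of CD14 in sensing lipopolysaccharide, Tlr4 and Ly96, had no call. Tlr4 was at 1.34 to 2.19 RPKM in A/J, 1.16 to 1.26 RPKM in BALB/c and 1.36 to 1.87 RPKM in C57BL/6J, and Ly96 was at 0.99 to 4.30 RPKM in A/J, 1.18 to 1.49 RPKM in BALB/c and 0.51 to 2.94 RPKM in C57BL/6J. Lbp, the lipopolysaccharide carrier and the highest gene of the list, was at 7.91 to 11.28 RPKM in A/J, 7.83 to 9.11 RPKM in BALB/c and 8.32 to 16.41 RPKM in C57BL/6J. Median log2 changes over the 13 were -0.16 in A/J minus C57BL/6J, 0.05 in BALB/c minus C57BL/6J and -0.24 in A/J minus BALB/c, beside -0.01 over all genes tested in each.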

How the data were processed

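The authors deposited 1 table per library with a gene symbol and a value of 2 decimals for 13089 genes. The deposited values were taken as RPKM, since no header names a unit and value times transcript length came to 99.4% to 117.4% of the total that RPKM gives. The submitters' processing notes name CASAVA 1.7, GenomeStudio and the build mm9. Neither the counting rule nor the gene models is given in the sources used here. The tables appear to list genes whose highest strain mean reached 0.997 RPKM or more. Depth is unknown: at most 35.4% of low values came within 0.1 of a whole number of reads, so reads could not be recovered and values carry no counting interval. No columns of other samples were present, and 0 were used.

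Each library was scaled by its median-of-ratios size factor (0.932 to 1.156), and the log2 of the scaled value plus 0.5 was used. Genes at 1 RPKM or more in at least 3 libraries were tested (12920, with 169 left out) in limma 3.58.1 with statmod 1.5.0 and R 4.3.3 (trended prior, robust, strain as the only term, all 9 libraries in 1 fit). Tests were two-sided, and p-values were adjusted by Benjamini-Hochberg over all genes tested. Means and SDs are of deposited RPKM. The script was tested on simulated data. GC content (98.2% of genes) and overlaps came from GENCODE vM21, whose build differs from mm9. GC correction subtracted from each library a lowess curve (span 0.3) of deviation over GC content.

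The markers and lists were chosen with earlier results of these data known. The rule named all markers, called members of each list (up to 4), the member with the highest mean, and the 6 genes of most similar profile with a mean of at least 2 RPKM, of which 1 is not reported here. Other genes named were chosen after their values were seen: ligands, partners, Syk, PU.1, genes of the all-below pattern, and P2ry12, Gpr34, Tmem119, Lyve1, Ms4a7 and the Fc receptors. Alternatives were pseudocounts 0.1 and 1, no filter, no scaling, quantile normalization, GC correction, fits of only the 2 strains compared, a replicate block, and leaving out libraries.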

Additional observations from a re-analysis of the deposited data

How the results depend on the processing

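Of 540 repeats of a marker's log2 change under an alternative, 483 kept direction and call status, 12 became called and 45 changed sign, all of the last uncalled. No marker was called before these changes, so no call could be lost. In A/J minus C57BL/6J the count of called markers was 1 on values as deposited (Fcer1g), where 2.76% of all genes were called. Over the omissions of 1 library it was 0 to 2. It was 2 without A/J 3 (Aif1 and Tyrobp, with 28.2% of all genes called) and 1 without C57BL/6J 3 (Fcer1g, with 2.27%). The count was 4 (Aif1, Fcer1g, Itgam and Tyrobp) without A/J 3 and C57BL/6J 3 together, where 39.5% of all genes were called. Without those 2 libraries the count was 2 in BALB/c minus C57BL/6J (Fcer1g and Tyrobp; 14.6% of all genes), 2 in A/J minus BALB/c (Aif1 and Csf1r; 60.2%) and 4 in the F test (61.7%), which ranged from 0 to 2 over single omissions (2 without A/J 3, where 32.9% of all genes were called). All other settings gave 0.

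Signs changed as follows, in log2 change. Without A/J 1 and A/J 2 together, which leaves 1 A/J library assumed to vary like the others, A/J minus C57BL/6J was -0.43 for Aif1, 0.16 for Csf1r, -0.12 for Trem2 and -0.02 for Cd14, and A/J minus BALB/c was -0.69 for Aif1, 0.04 for Cx3cr1, 0.02 for Itgam, -0.16 for Cd68, 0.08 for Tyrobp, -0.10 for Trem2 and -0.13 for Cd14. Without A/J 3 and C57BL/6J 3 together, A/J minus C57BL/6J was -0.03 for Cx3cr1 and 0.18 for Cd68, and BALB/c minus C57BL/6J 0.09 for Cd68. GC correction, alone or with the replicate block, gave 0.09 for Csf1r and 0.03 for Cd68 in A/J minus C57BL/6J and 0.17 for Tyrobp in A/J minus BALB/c. Quantile normalization gave 0.00 for Cd68 in A/J minus C57BL/6J and 0.01 for Trem2 in BALB/c minus C57BL/6J. Values as deposited gave 0.05 for Tyrobp in A/J minus BALB/c and -0.04 for Cd14 in BALB/c minus C57BL/6J. Over single omissions, A/J minus C57BL/6J ranged from -0.15 to 0.07 for Csf1r, -0.27 to 0.10 for Cd68 and -0.04 to 0.32 for Trem2. BALB/c minus C57BL/6J ranged from -0.28 to 0.09 for Cd68 and -0.11 to 0.13 for Trem2. A/J minus BALB/c ranged from -0.18 to 0.49 for Aif1, -0.04 to 0.10 for Cd68, -0.08 to 0.10 for Tyrobp, -0.03 to 0.33 for Trem2 and -0.03 to 0.13 for Cd14. The cause was not tested.

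Whether the replicate numbers pair the samples was not settled. Correlations of deviations ran from -0.51 to 0.54, mostly above 0, between same-numbered libraries. Between the others they ran from -0.67 to 0.60, mostly below 0. With the replicate block 0 markers were called in every comparison, and all genes called came to 408 in A/J minus C57BL/6J, 397 in BALB/c minus C57BL/6J and 375 in A/J minus BALB/c, against 348, 396 and 319 without it. Among other genes named, those called without the block and not with it were Olfml3 in A/J minus BALB/c (adjusted p = 0.062, and 0.07 with GC correction), F13a1 in BALB/c minus C57BL/6J (0.074 and 0.053) and Tpsab1 in A/J minus C57BL/6J (0.068). Those called with the block and not without it included P2ry12 in A/J minus C57BL/6J (0.033 and 0.047), Lyve1 in A/J minus BALB/c (0.036 and 0.03) and Ccl6 in BALB/c minus C57BL/6J (0.039 and 0.019). For all genes, single omissions gave 153 to 3634 calls in A/J minus C57BL/6J, 149 to 631 in BALB/c minus C57BL/6J and 79 to 4462 in A/J minus BALB/c, the highest each time without A/J 3. With only the 2 strains in the fit A/J minus C57BL/6J gave 142. Since depth is unknown, the counting error of low markers such as Cx3cr1, Aif1 and Trem2, at 1 to 5 RPKM, could not be given.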

Other observations

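Mast cells sit in the choroid and limbus of the eye, and 2 of their 6 measured genes, Tpsab1 and Hdc, were called. Of all genes tested, 2.69% were called in A/J minus C57BL/6J, 3.07% in BALB/c minus C57BL/6J and 2.47% in A/J minus BALB/c. Both genes passed the filter through 1 strain only, so their count is no result about mast cells. Tpsab1, a mast cell tryptase, was at 0.43, 0.57 and 0.50 RPKM in A/J, at 3.23, 3.86 and 3.39 RPKM in BALB/c, and at 0.19, 0.06 and 0.16 RPKM in C57BL/6J. It was called higher in BALB/c than in C57BL/6J (log2 change 2.75, limma adjusted p = 1.3e-05) and, in A/J minus BALB/c, lower (-2.06, adjusted p = 0.00013). Tpsab1 reached 1 RPKM in the BALB/c libraries alone, so it passed the filter only through the strain in which it is high, and without any 1 of these libraries it was not tested. A/J minus C57BL/6J, with both strains under 1 RPKM, was 0.69 (adjusted p = 0.035). That call was lost on leaving out A/J 1 or 2 or any C57BL/6J library (up to 0.14). It was also lost with pseudocount 1 (0.08), quantile normalization (0.085), the replicate block (0.068) or only the 2 strains in the fit (0.18). Without A/J 1 and A/J 2 together the log2 change was 0.67. The call was kept in 7 of 17 alternatives. Hdc, the histamine-forming decarboxylase, was at 0.29 to 0.35 RPKM in A/J, 0.51 to 0.60 RPKM in BALB/c and 2.13 to 5.56 RPKM in C57BL/6J. It was called lower in A/J (-2.17, adjusted p = 0.00096) and BALB/c (-1.76, adjusted p = 0.0035) than in C57BL/6J. Hdc reached 1 RPKM in the C57BL/6J libraries alone, so the same limit holds for it, and without any 1 of these it was not tested. The other 4 measured mast cell genes were not called, among them Tpsb2, the highest, at 2.35 to 3.38 RPKM in A/J, 4.78 to 5.18 RPKM in BALB/c and 2.49 to 4.56 RPKM in C57BL/6J.

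Genes of other blood cells varied within strains and were not called. S100a9 was at 5.79, 6.18 and 0.81 RPKM in A/J, at 1.33, 1.22 and 1.19 RPKM in BALB/c, and at 13.15, 3.62 and 4.74 RPKM in C57BL/6J. Hbb-b2, a beta globin gene, was at 80.21, 42.66 and 16.46 RPKM in A/J, at 10.86, 8.88 and 5.34 RPKM in BALB/c, and listed at 0 in C57BL/6J 1, with 38.41 and 9.89 RPKM in C57BL/6J 2 and 3. Of 6 genes of erythrocytes 4 were listed and 3 tested. Of the 10 genes used to check the tissue, the rod arrestin Sag was called higher in A/J than in C57BL/6J, at 2459 ± 411 against 1221 ± 81.8 RPKM (SD, n = 3 each; log2 change 1.11, limma adjusted p = 0.0065), and Cryaa was the highest. The Sag call was lost with only these 2 strains in the fit (0.07) and without A/J 1 and A/J 2 together (0.19).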
